A study of Mus musculus with 4 samples.

Results

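Lysosomes are acidic organelles in which hydrolases break down proteins, glycans and lipids, and their acid interior is made by the vacuolar ATPase (V-ATPase), a rotary proton pump. Its V1 sector faces the cytosol and hydrolyses ATP, and its V0 sector lies in the membrane and carries the protons. Smooth muscle cells of the arterial wall use lysosomes to degrade matrix and lipoproteins taken up from outside, and some of their cathepsins also act on matrix after secretion. The genes described here are the 52 rows of the deposited tables whose symbol starts with Atp6v (23 genes) or is 1 of 29 listed lysosomal enzymes and membrane proteins, out of 22488 genes in all. Members were found by symbol, and the list of symbols was drawn up with earlier results of these data known.

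The cells were cultured mouse vascular smooth muscle cells of strain C57BL/6, at passage 4 to 10. They were harvested 48 hours after transfection with an siRNA against circEsyt2 (2 libraries) or with a scramble siRNA (2 libraries). The circular RNA circEsyt2 takes its name from the gene Esyt2, and its own level was not analysed here. Both groups were transfected and no untransfected cells are part of the comparison, so these data do not separate a rise under circEsyt2 siRNA from a fall under the scramble siRNA. Whether the libraries of a group came from different cultures is not labelled. The p-values therefore reflect the spread among these 4 libraries alone, which may be technical.

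Gene levels were deposited as FPKM, fragments per kilobase of gene scaled to the size of the library. The length of a gene is here the union of its annotated exons. Orders, ratios and shares between different genes therefore depend on the annotation as well as on the RNA. The digits of the low values gave library totals of 3765056 and 3127224 fragments with circEsyt2 siRNA and 2516428 and 4116791 with scramble siRNA. The smooth muscle actin gene Acta2 was at 883 and 829 FPKM with circEsyt2 siRNA, against 1421 and 1446 with scramble siRNA. Of the other smooth muscle markers, Tagln stood at 5.08 to 10.4 FPKM, and Des and Myocd at 0.189 to 1.05 FPKM over the 4 libraries. Of the 6 smooth muscle markers 4 were tested and 3 of these fell. The circEsyt2 siRNA libraries differed from each other in markers of liver cells. The summed FPKM of 8 hepatocyte genes was 2847 in circEsyt2 siRNA replicate 1 and 87.5 in replicate 2, against 11.5 and 3.31 in the scramble libraries. All 8 were above 0 in both circEsyt2 siRNA libraries, whereas 3 of the 8 were at 0 in each scramble library. Their part in the results below was not tested.

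Of the 52 genes, 44 reached the mean of 1 FPKM needed for testing. With circEsyt2 siRNA 15 of these 44 rose, 2 fell and 27 did not pass the test (limma on log2(FPKM + 1), Benjamini-Hochberg adjusted p under 0.05 over all 11290 tested genes). Among all tested genes 5.47% rose and 7.26% fell, 12.7% in either direction, against 38.6% of the tested lysosomal genes. The median log2 fold change of the 44 genes was 0.37, beside 0.0037 over all tested genes. It was 0.35 in circEsyt2 siRNA replicate 1 and 0.30 in replicate 2, each taken against the mean of the scramble libraries. The groups did not overlap for 37 of the 44 genes, while 60.7% of all tested genes showed no overlap. All 17 changes kept their direction in each of 10 alternative fits. Only the fits with another scaling could have changed it, since the groups did not overlap for any of the 17. Only Atp6v1g1, Atp6v1b2, Atp6v0b and Ctsl passed the test in each of the 8 alternatives that kept both scramble libraries, and no gene at all passed it without scramble replicate 1 or without scramble replicate 2. A fit without 1 library leaves a single library in that group, which is then assumed to vary as the other group does. Exons of Atp6v1e1, Atp6v1h, Atp6v0b, Atp6v0a2, Ctsb, Ctsl, Hexa and Lamp1, among the 17, overlap those of another annotated gene, and the files do not show how fragments were shared out between them.

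**Figure D1:**
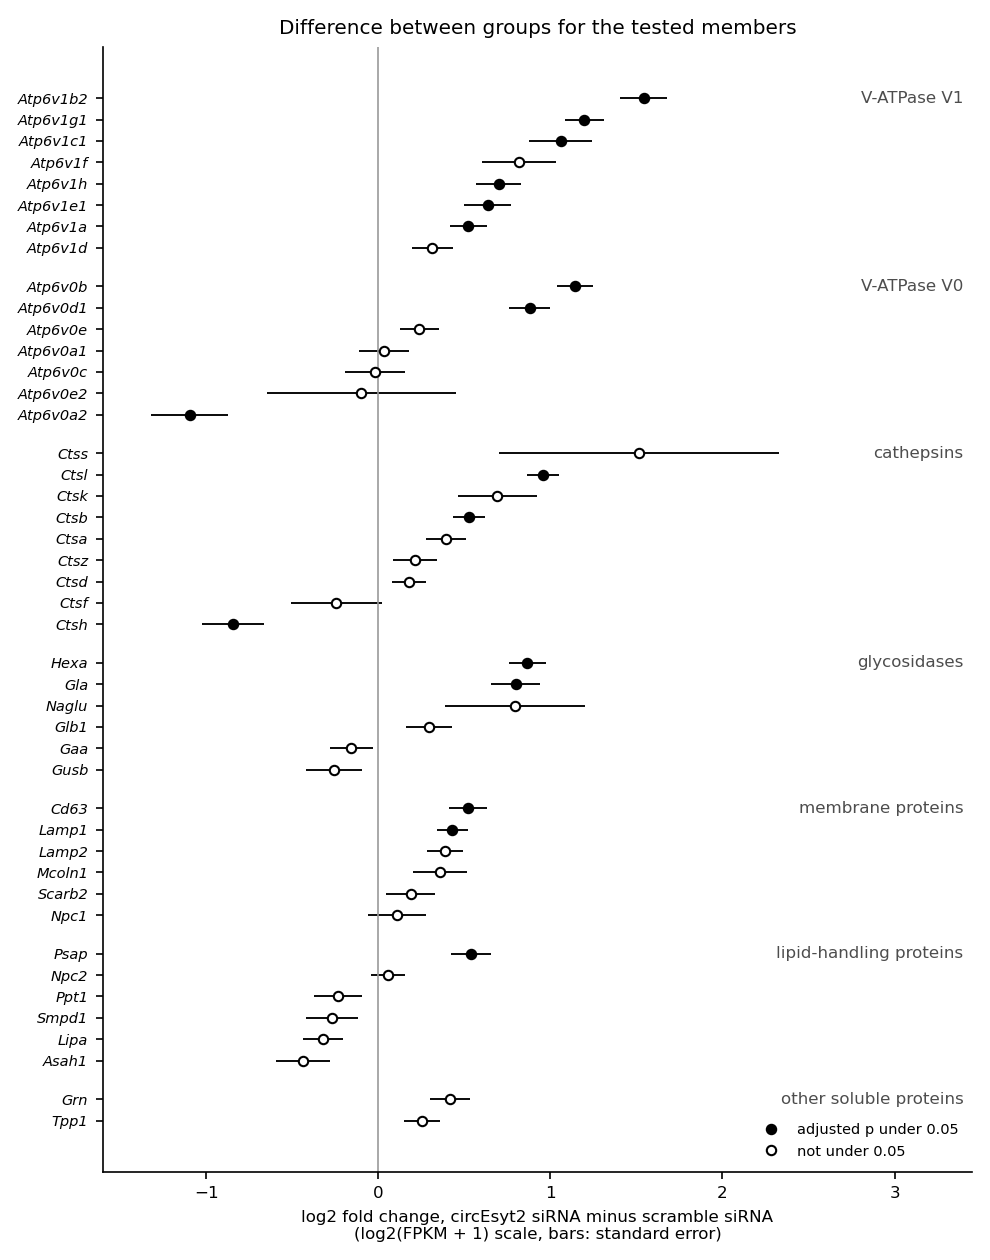
Log2 fold change (x axis, circEsyt2 siRNA minus scramble siRNA on the log2(FPKM + 1) scale, bars: standard error) of the 44 tested genes, grouped by role, with filled points for an adjusted p under 0.05. All 8 V1 genes lie to the right of 0, whereas the V0 genes run from −1.10 for Atp6v0a2 to 1.14 for Atp6v0b.

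Some of these genes carry in their promoter the E-box CACGTG, the core of the CLEAR element through which the factor TFEB and its relatives are known to drive lysosomal genes. RefSeq promoters on GRCm38.p6, each spanning 250 bases before and 50 bases after the start, were matched for 42 of the 52 genes. CACGTG, which reads the same on both strands, was found in the promoters of 14 of these 42 genes (33.3%), against 8.09% of the 27025 genes with a promoter. The longer palindrome TCACGTGA, which contains it, was found for 7 of the 42 genes (16.7%), against 1.12% of all genes. All genes with a promoter entered these comparisons, tested here or not, and no share among the tested genes was computed. By outcome, CACGTG was present for 6 of the 10 matched genes that rose and for 8 of the 25 matched genes that did not pass the test. It was present for 0 of the 7 matched genes below the limit for testing. Atp6v1b2, Atp6v1g1, Atp6v1c1, Atp6v1h and Ctsb, which rose, had no matched promoter. Neither had Atp6v0a2 or Ctsh, so these counts hold no gene that fell. A match describes these letters in this window and shows no binding. The stretches below, all upstream of the start, are shown because they hold several words close together or belong to genes that rose, and those of Mcoln1 and Ctsd are shown for contrast as genes that did not pass the test. The capitals mark CACGTG.
Lamp1 (chr8:13159091-13159160, plus strand): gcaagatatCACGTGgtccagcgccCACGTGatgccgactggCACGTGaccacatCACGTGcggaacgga
Atp6v0b (chr4:117887330-117887399, minus strand): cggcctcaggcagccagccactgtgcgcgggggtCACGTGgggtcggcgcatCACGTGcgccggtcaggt
Atp6v1a (chr16:44139353-44139422, minus strand): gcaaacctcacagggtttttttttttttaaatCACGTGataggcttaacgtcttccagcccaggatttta
Gla (chrX:134601179-134601248, minus strand): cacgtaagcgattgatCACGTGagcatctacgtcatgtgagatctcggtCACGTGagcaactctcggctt
Ctsl (chr13:64370701-64370770, minus strand): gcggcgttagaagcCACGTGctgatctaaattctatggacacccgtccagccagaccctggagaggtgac
Mcoln1 (chr8:3500429-3500498, plus strand): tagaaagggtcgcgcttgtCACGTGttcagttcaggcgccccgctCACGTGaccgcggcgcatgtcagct
Ctsd (chr7:142387888-142387957, minus strand): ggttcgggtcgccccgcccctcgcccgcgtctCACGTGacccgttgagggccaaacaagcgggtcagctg
Lamp1 held 4 such words within 70 bases of its start and Atp6v0b held 2, while Gla and Mcoln1 each held 2 farther apart. The word is thus present both in genes that rose and in genes that did not pass the test.

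Genes of the V1 sector rose most widely. Of the 14 rows named Atp6v1, 8 were tested and all 8 were higher in both circEsyt2 siRNA libraries than in either scramble library. Of these, 6 passed the test and 2 did not, and the median log2 fold change was 0.76 (0.85 in circEsyt2 siRNA replicate 1 and 0.70 in replicate 2). Over all tested genes 60.7% showed no overlap between the groups, and 12.7% passed the test in either direction. Summed over the V1 genes, the level was 889 and 903 FPKM with circEsyt2 siRNA, against 417 and 493 FPKM with scramble siRNA. Both circEsyt2 siRNA libraries were above both scramble libraries.

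**Figure D2:**
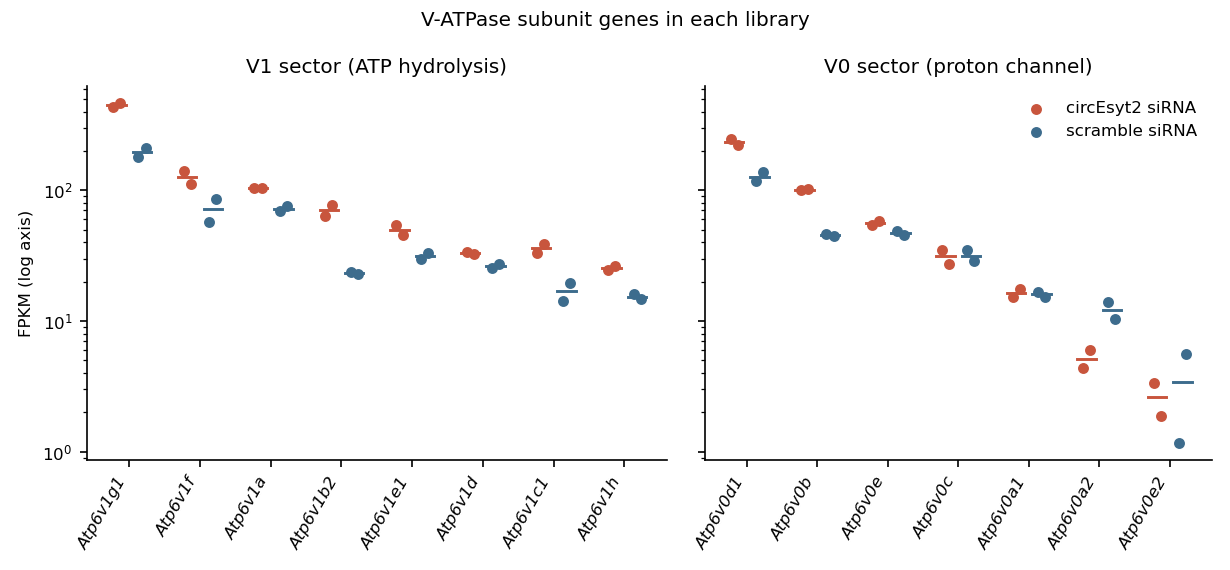
FPKM on a log axis of the tested V-ATPase genes, with 1 point per library and a line at the group mean, circEsyt2 siRNA at the left of each pair. In the V1 panel no point of circEsyt2 siRNA overlaps the scramble points, with Atp6v1b2 at 63.3 and 76.9 FPKM against 23.8 and 22.8 FPKM.

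The catalytic part of V1 is a ring of A and B subunits. Atp6v1b2, the B subunit gene expressed in most tissues, is on chromosome 8 at 69088646 to 69113711 (GRCm38, plus strand). Its level was 63.3 and 76.9 FPKM with circEsyt2 siRNA, against 23.8 and 22.8 FPKM with scramble siRNA. The groups did not overlap, and Atp6v1b2 had the largest log2 fold change of the V-ATPase genes, 1.54 (SE 0.14; limma adjusted p = 0.00447), a 3.01-fold difference of mean FPKM. Atp6v1a, which encodes the A subunit that binds and hydrolyses ATP, was at 104 and 104 FPKM with circEsyt2 siRNA, against 68.8 and 75.7 FPKM with scramble siRNA. The log2 fold change of this gene was 0.52 (SE 0.11; adjusted p = 0.0319). The A and B proteins stand in equal number in the pump, but a ratio of FPKM describes RNA and cannot be read against that. The ratio of Atp6v1b2 to Atp6v1a FPKM, chosen after their values were seen, was 0.609 and 0.737 with circEsyt2 siRNA. With scramble siRNA it was 0.346 and 0.301.

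The peripheral stalks, which hold the catalytic ring in place, are made of E and G subunits. Atp6v1g1, the widely expressed G subunit gene on chromosome 4 at 63544772 to 63550750, had the highest mean FPKM of the V-ATPase genes. It measured 435 and 465 FPKM with circEsyt2 siRNA, against 181 and 212 FPKM with scramble siRNA, a 2.29-fold difference of means (log2 fold change 1.20, SE 0.11; limma adjusted p = 0.00487). Atp6v1e1, the E subunit gene, was at 53.8 and 45.1 FPKM with circEsyt2 siRNA, against 29.9 and 32.9 FPKM with scramble siRNA. It rose by 0.64 (SE 0.14; adjusted p = 0.0377).

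Subunits C and H control whether V1 stays attached to V0 and works. Atp6v1c1, the common C subunit gene, was at 33.1 and 38.8 FPKM with circEsyt2 siRNA, against 14.3 and 19.4 FPKM with scramble siRNA, and rose (log2 fold change 1.06, SE 0.18; limma adjusted p = 0.0211). Atp6v1h, the H subunit gene, was at 24.7 and 26.4 FPKM with circEsyt2 siRNA, against 16.0 and 14.7 FPKM with scramble siRNA, and rose by 0.70 (SE 0.13; adjusted p = 0.0253). The genes of the central stalk did not pass the test. Atp6v1f was at 139 and 112 FPKM with circEsyt2 siRNA and at 57.6 and 86.4 FPKM with scramble siRNA (adjusted p = 0.0609), and it passed with a pseudocount of 0.1. Atp6v1d was at 33.5 and 32.5 FPKM with circEsyt2 siRNA and at 25.3 and 27.4 FPKM with scramble siRNA (adjusted p = 0.147).

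Among the 6 V1 calls, those of Atp6v1a, Atp6v1e1 and Atp6v1h were lost without circEsyt2 siRNA replicate 1, and these and Atp6v1c1 were lost without circEsyt2 siRNA replicate 2. Without scramble replicate 1 or scramble replicate 2 all 6 were lost. With the replicate block the V-ATPase genes that rose numbered 5 instead of 8, since Atp6v1a, Atp6v1e1 and Atp6v1h lost their call.

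The V0 sector was mixed, with 2 of 7 tested Atp6v0 genes higher, 1 lower and 4 not called. This made 42.9% called, beside 12.7% over all tested genes, and the median log2 fold change was 0.035. These values leave out Tcirg1, a V0 gene without an Atp6v symbol, which fell and is described below. The median was 0.18 in circEsyt2 siRNA replicate 1 and 0.14 in replicate 2, each against the scramble mean, and 0.12 to 0.19 when each of the 4 libraries was left out in turn. Atp6v0b, which encodes a subunit of the proteolipid ring that turns in the membrane, is on chromosome 4 at 117884326 to 117887333 (minus strand). It was at 101 and 101 FPKM with circEsyt2 siRNA, against 46.1 and 44.3 FPKM with scramble siRNA. This 2.24-fold difference of means exceeded the spread within either group (log2 fold change 1.14, SE 0.10; limma adjusted p = 0.00453). Atp6v0c, the gene of the main ring subunit, did not pass the test, at 35.2 and 27.5 FPKM with circEsyt2 siRNA and 34.8 and 28.6 FPKM with scramble siRNA (adjusted p = 0.954). Its groups overlapped, and fragments of Atp6v0c may be shared with the annotated copies Atp6v0c-ps1 and Atp6v0c-ps2. The ratio of Atp6v0b to Atp6v0c FPKM, chosen after their values were seen, was 2.87 and 3.69 with circEsyt2 siRNA, against 1.33 and 1.55 with scramble siRNA. Atp6v0d1, whose product couples the ring to the central stalk, was at 245 and 224 FPKM with circEsyt2 siRNA, against 117 and 137 FPKM with scramble siRNA, and rose by 0.88 (SE 0.12; adjusted p = 0.0108). Atp6v0e, a small membrane subunit gene, was at 53.8 and 58.3 FPKM with circEsyt2 siRNA and 48.9 and 45.8 FPKM with scramble siRNA (adjusted p = 0.222).

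Subunit a, through which protons pass, has several isoforms that are known to direct the pump to different membranes. Atp6v0a2, the isoform gene linked to Golgi and early endosomes, lies on chromosome 5 at 124628576 to 124724455 (plus strand). It was at 4.34 and 5.94 FPKM with circEsyt2 siRNA, against 14.1 and 10.3 FPKM with scramble siRNA, on 110 and 125 against 238 and 284 fragments. Among the genes with an Atp6v symbol it was the 1 that fell (log2 fold change −1.10, SE 0.22; limma adjusted p = 0.0321). Atp6v0a1 was at 15.2 and 17.7 FPKM with circEsyt2 siRNA and 16.6 and 15.3 FPKM with scramble siRNA (adjusted p = 0.894). Tcirg1, which encodes the isoform known from osteoclasts and lysosomes and does not bear an Atp6v symbol, was at 16.7 and 17.6 FPKM with circEsyt2 siRNA, against 25.2 and 27.6 FPKM with scramble siRNA, and fell by 0.59 (SE 0.13; adjusted p = 0.0378). Of the summed FPKM of the 4 subunit a genes, Atp6v0a1 made up 40.8% and 42.6% with circEsyt2 siRNA, against 29.6% and 28.6% with scramble siRNA. The share of Atp6v0a2 was 11.7% and 14.3% with circEsyt2 siRNA, against 25.1% and 19.2% with scramble siRNA, and that of Tcirg1 was 44.8% and 42.5% against 45.0% and 51.6%.

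Among the fits that left out a library, the call of Atp6v0b was lost only in those without a scramble library. Atp6v0d1 also lost its call without circEsyt2 siRNA replicate 2, and Atp6v0a2 and Tcirg1 lost theirs without each of the 4 libraries and with the replicate block.

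**Figure D3:**
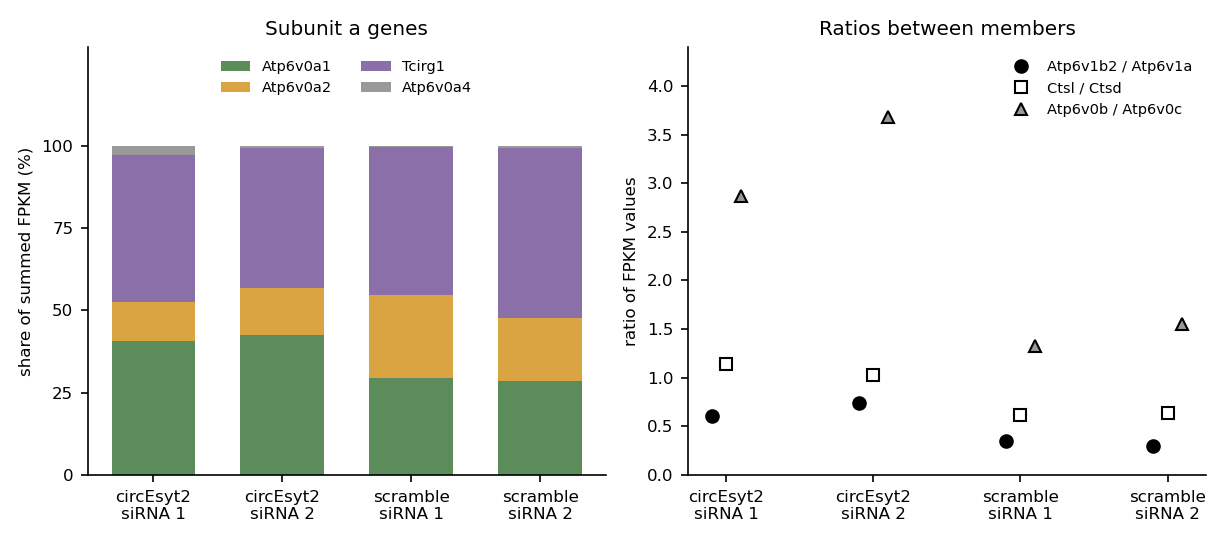
Left, share of each subunit a gene in their summed FPKM (y axis, percent) in each library; right, ratios of FPKM between 3 pairs of genes in each library. Atp6v0a1 takes 40.8% and 42.6% of subunit a with circEsyt2 siRNA and 29.6% and 28.6% with scramble siRNA, and each of the 3 ratios is higher in both circEsyt2 siRNA libraries than in either scramble library.

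The 8 rows below the limit for testing were Atp6v1g3, Atp6v1b1, Atp6v1g2, Atp6v1c2, Atp6v1e2, Atp6v0d2, Atp6v0a4 and Atp6v1fnb. The first 7 encode isoforms known mainly from kidney, epididymis, osteoclasts, brain or testis, and Atp6v1fnb is a neighbour of Atp6v1f and no subunit. None exceeded 1.13 FPKM or 19 fragments in any library. The highest count was that of Atp6v0a4 in circEsyt2 siRNA replicate 1, with 19 fragments, against 4 in replicate 2 and 2 and 7 in the scramble libraries. Atp6v0d2 had 10 and 6 fragments with circEsyt2 siRNA and 2 and 3 with scramble siRNA. No fold is given at these depths. In circEsyt2 siRNA replicate 1, 4 epithelial markers summed to 13.2 FPKM, against 0.432 in replicate 2 and 0.746 and 1.21 in the scramble libraries; the part of this in the Atp6v0a4 count was not tested. The tested isoform Atp6v0e2, at 3.35 and 1.88 FPKM with circEsyt2 siRNA and 1.17 and 5.61 FPKM with scramble siRNA, overlapped between groups (limma adjusted p = 0.924). In every library the common isoform held at least 98.3% of the B, C, E, G and d subunit FPKM, each taken over its own isoforms.

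Cathepsins are the proteases of the lysosome, and Ctsa is a serine carboxypeptidase that also protects other hydrolases. All 9 were tested, and 2 rose, 1 fell and 6 did not pass the test, with a median log2 fold change of 0.39. The share called was 33.3%, beside 12.7% over all tested genes. These counts and the median include Ctss, which reached the limit for testing through 1 library. The order of levels with circEsyt2 siRNA placed Ctsl, Ctsd and Ctsb close together at means of 232, 214 and 209 FPKM. With scramble siRNA Ctsd stood at 188, Ctsb at 145 and Ctsl at 119 FPKM. Such an order depends on the exon lengths used. In circEsyt2 siRNA replicate 1 Ctsl had 5651 fragments over 6489 bases and Ctsd 1799 over 2351 bases. The 2 that rose were cysteine proteases of this abundant group.

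Ctsl, the gene of the endopeptidase cathepsin L, is on chromosome 13 at 64359337 to 64370890 (minus strand). Its level was 231 and 232 FPKM with circEsyt2 siRNA, against 116 and 122 FPKM with scramble siRNA. The 1.95-fold difference of means exceeded the spread within each group (log2 fold change 0.96, SE 0.09; limma adjusted p = 0.00501). Its exons overlap those of Gm47123, on the opposite strand, and of Gm49230, on the same strand, and the larger overlap is 1742 bases. The assignment of fragments in these stretches is uncertain. Ctsb, which encodes cathepsin B, was at 213 and 206 FPKM with circEsyt2 siRNA, against 144 and 146 FPKM with scramble siRNA, and rose by 0.53 (SE 0.09; adjusted p = 0.0216). Its call was lost without each of the 4 libraries and with the replicate block.

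Ctsd, the gene of the aspartic protease cathepsin D, was at 203 and 225 FPKM with circEsyt2 siRNA and at 187 and 190 FPKM with scramble siRNA, and did not pass the test (limma adjusted p = 0.280). The ratio of Ctsl to Ctsd FPKM, chosen after their values were seen, was 1.14 and 1.03 with circEsyt2 siRNA, against 0.620 and 0.640 with scramble siRNA. Ctsh, which encodes an aminopeptidase on chromosome 9 at 90054152 to 90076089, was the cathepsin gene that fell. It was at 5.67 and 6.82 FPKM with circEsyt2 siRNA, on 96 and 96 fragments, against 10.9 and 13.2 FPKM on 123 and 244 fragments with scramble siRNA. Its log2 fold change was −0.84 (SE 0.18; adjusted p = 0.0356). The call did not hold when any 1 of the 4 libraries was left out.

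The remaining cathepsin genes did not pass the test. Ctsk, the collagen-degrading cathepsin K known from osteoclasts, was at 48.5 and 68.7 FPKM with circEsyt2 siRNA and 42.1 and 29.7 FPKM with scramble siRNA (limma adjusted p = 0.106). Ctsa was at 68.8 and 60.8 FPKM with circEsyt2 siRNA and 48.6 and 49.4 FPKM with scramble siRNA (adjusted p = 0.0812). Neither group pair overlapped for these genes. The levels of Ctsz, a carboxypeptidase gene, lay between 136 and 182 FPKM and those of Ctsf between 4.84 and 8.49 FPKM over the 4 libraries, with overlapping groups.

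Ctss, the cathepsin of antigen-presenting cells, stood apart in a single library. It was at 7.43 and 0.471 FPKM with circEsyt2 siRNA, on 38 and 2 fragments, and at 0.293 and 0.179 FPKM with scramble siRNA, on 1 and 1 fragments. Ctss reached the mean needed for testing only through circEsyt2 siRNA replicate 1, and dropped out of the fit without that library. It did not pass the test (log2 fold change 1.51, SE 0.81; limma adjusted p = 0.267), and it passed only in the fit without circEsyt2 siRNA replicate 2, in which the library with 38 fragments stands alone in its group and the spread comes from the scramble libraries. The same library, circEsyt2 siRNA replicate 1, had 21.4 FPKM of the macrophage lysozyme gene Lyz2, against 0.972 in replicate 2 and 1.21 and 0.923 in the scramble libraries. Over 12 macrophage and osteoclast markers the summed FPKM was 45.2 and 12.2 with circEsyt2 siRNA, against 18.2 and 18.2 with scramble siRNA. The number of these markers at 0 was 2 and 1 with circEsyt2 siRNA, against 4 and 0 with scramble siRNA, and the defining marker Itgam was at 0 and 0 FPKM with circEsyt2 siRNA, against 0 and 0.193 with scramble siRNA. Cd68 was at 3.59 and 1.53 FPKM with circEsyt2 siRNA, against 0.632 and 0.966 with scramble siRNA, and Adgre1 at 1.89 and 0.593 against 0 and 0.150. Csf1r was lower, at 1.74 and 0.262 FPKM with circEsyt2 siRNA, against 1.87 and 3.48 with scramble siRNA. The part of these markers in the Ctss level was not tested. In such bulk samples fewer cells of a type and less RNA per cell cannot be told apart.

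**Figure D4:**
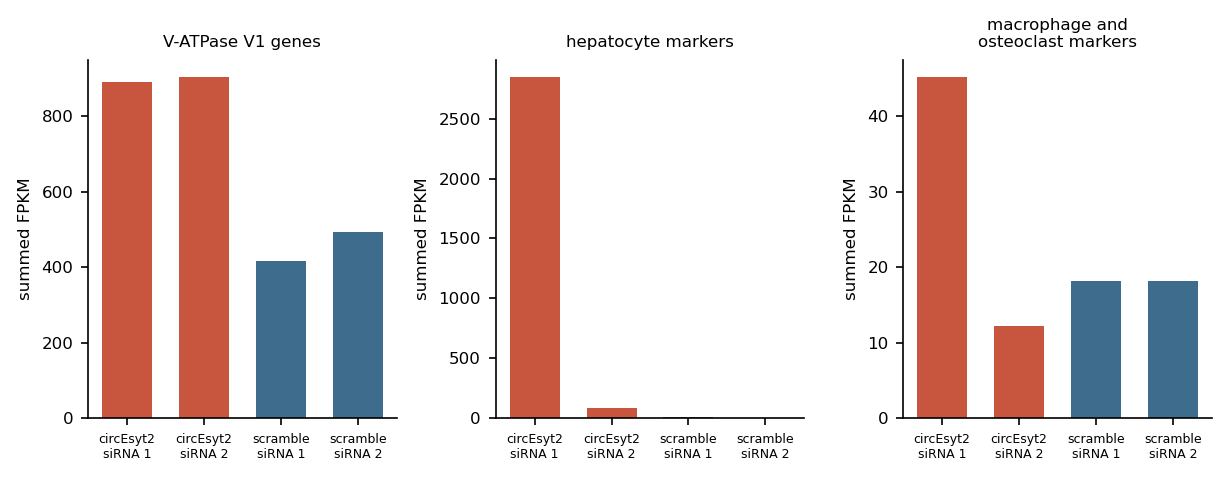
Summed FPKM per library of the V-ATPase V1 genes, of 8 hepatocyte markers and of 12 macrophage and osteoclast markers. The V1 sum is 889 and 903 FPKM in the circEsyt2 siRNA libraries and 417 and 493 in the scramble libraries, while the hepatocyte sum is 2847 FPKM in circEsyt2 siRNA replicate 1 and 87.5 in replicate 2.

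Glycosidases remove sugars from glycolipids, glycogen and matrix glycans. Of the 6 tested, 2 rose and 4 did not pass the test, with a median log2 fold change of 0.54. The share called was 33.3%, beside 12.7% over all tested genes. Hexa, which encodes the alpha chain of beta-hexosaminidase, the enzyme lost in Tay-Sachs disease, is on chromosome 9 at 59539540 to 59565109. It was at 90.6 and 88.8 FPKM with circEsyt2 siRNA, against 46.8 and 50.7 FPKM with scramble siRNA, a 1.84-fold difference of means (log2 fold change 0.87, SE 0.11; limma adjusted p = 0.00890). Gla, the alpha-galactosidase A gene affected in Fabry disease, was at 31.9 and 33.4 FPKM with circEsyt2 siRNA, against 16.7 and 20.2 FPKM with scramble siRNA, and rose by 0.80 (SE 0.14; adjusted p = 0.0225). The call of Gla was lost without each of the 4 libraries, and that of Hexa without either scramble library and without circEsyt2 siRNA replicate 2.

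The other 4 glycosidase genes did not pass the test. Gaa, the glycogen-degrading acid alpha-glucosidase gene, was at 20.0 and 19.3 FPKM with circEsyt2 siRNA and 22.5 and 21.4 FPKM with scramble siRNA (limma adjusted p = 0.447). Gusb and Glb1, the beta-glucuronidase and beta-galactosidase genes, had log2 fold changes of −0.26 and 0.30 (adjusted p = 0.333 and 0.201). Naglu, which acts on heparan sulfate, varied between the circEsyt2 siRNA libraries, at 7.19 and 17.9 FPKM, and was at 5.08 and 7.49 FPKM with scramble siRNA (adjusted p = 0.248). Its fold of means was 2.00, and it passed the test only in the fit without circEsyt2 siRNA replicate 1, which leaves the library at 17.9 FPKM alone in its group. The median of the 6 genes was 0.27 without circEsyt2 siRNA replicate 2.

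All 6 membrane protein genes were higher in both circEsyt2 siRNA libraries than in either scramble library, by 0.11 to 0.52 on the log2 scale, where 60.7% of all tested genes showed no overlap. Of these, 2 passed the test and 4 did not, a share of 33.3% beside 12.7% over all tested genes. Lamp1, which encodes a heavily glycosylated protein of the lysosomal membrane, is on chromosome 8 at 13159161 to 13175338 and was the most abundant of the 52 genes by mean FPKM. It was at 516 and 545 FPKM with circEsyt2 siRNA, against 383 and 403 FPKM with scramble siRNA (log2 fold change 0.43, SE 0.09; limma adjusted p = 0.0354). Cd63, a tetraspanin gene of late endosomes and lysosomes, was at 275 and 239 FPKM with circEsyt2 siRNA, against 178 and 179 FPKM with scramble siRNA, and rose by 0.52 (SE 0.11; adjusted p = 0.0337). Fragments of Cd63 may be shared with an annotated copy, Cd63-ps. Lamp2, a partner of Lamp1 with a role in chaperone-mediated autophagy, was at 92.3 and 87.4 FPKM with circEsyt2 siRNA and 67.0 and 69.7 FPKM with scramble siRNA (adjusted p = 0.0632). The calcium channel gene Mcoln1 was at 7.98 and 7.87 FPKM with circEsyt2 siRNA and 6.05 and 5.88 FPKM with scramble siRNA (adjusted p = 0.190). Scarb2, the receptor that carries glucocerebrosidase to lysosomes, and the cholesterol transporter gene Npc1 had log2 fold changes of 0.19 and 0.11 and did not pass the test. The calls of Lamp1 and Cd63 were lost without each of the 4 libraries and with the replicate block.

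The 6 genes of lipid handling did not move together. With 1 of them called, their share of 16.7% was close to the 12.7% over all tested genes. Psap, the precursor of the saposins that present lipids to hydrolases, was at 308 and 318 FPKM with circEsyt2 siRNA, against 235 and 197 FPKM with scramble siRNA. The log2 fold change of Psap was 0.54 (SE 0.12; limma adjusted p = 0.0379). The call did not hold without any 1 of the 4 libraries or with the replicate block. The other 5 genes did not pass the test. Lipa, the acid lipase gene that frees cholesterol from lipoproteins, was at 32.9 and 33.2 FPKM with circEsyt2 siRNA and 40.3 and 42.8 FPKM with scramble siRNA (adjusted p = 0.125). Asah1, the acid ceramidase gene, was at 46.5 and 57.1 FPKM with circEsyt2 siRNA and 63.5 and 77.7 FPKM with scramble siRNA (adjusted p = 0.126). The sphingomyelinase gene Smpd1 and the thioesterase gene Ppt1 had log2 fold changes of −0.27 and −0.23. Npc2, the soluble cholesterol carrier gene, was at 131 and 131 FPKM with circEsyt2 siRNA and 121 and 131 FPKM with scramble siRNA (adjusted p = 0.727). The median log2 fold change of these 6 genes was −0.25, while that of the cathepsins, glycosidases and membrane proteins lay between 0.37 and 0.54, and the difference between the groups of genes was not tested.

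Grn, the progranulin gene, was at 163 and 184 FPKM with circEsyt2 siRNA and 137 and 122 FPKM with scramble siRNA (limma adjusted p = 0.0710). Tpp1, a tripeptidyl peptidase gene, was at 60.9 and 62.8 FPKM with circEsyt2 siRNA and 51.3 and 52.0 FPKM with scramble siRNA (adjusted p = 0.170). Neither passed the test, and for neither did the groups overlap.

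**Figure D5:**
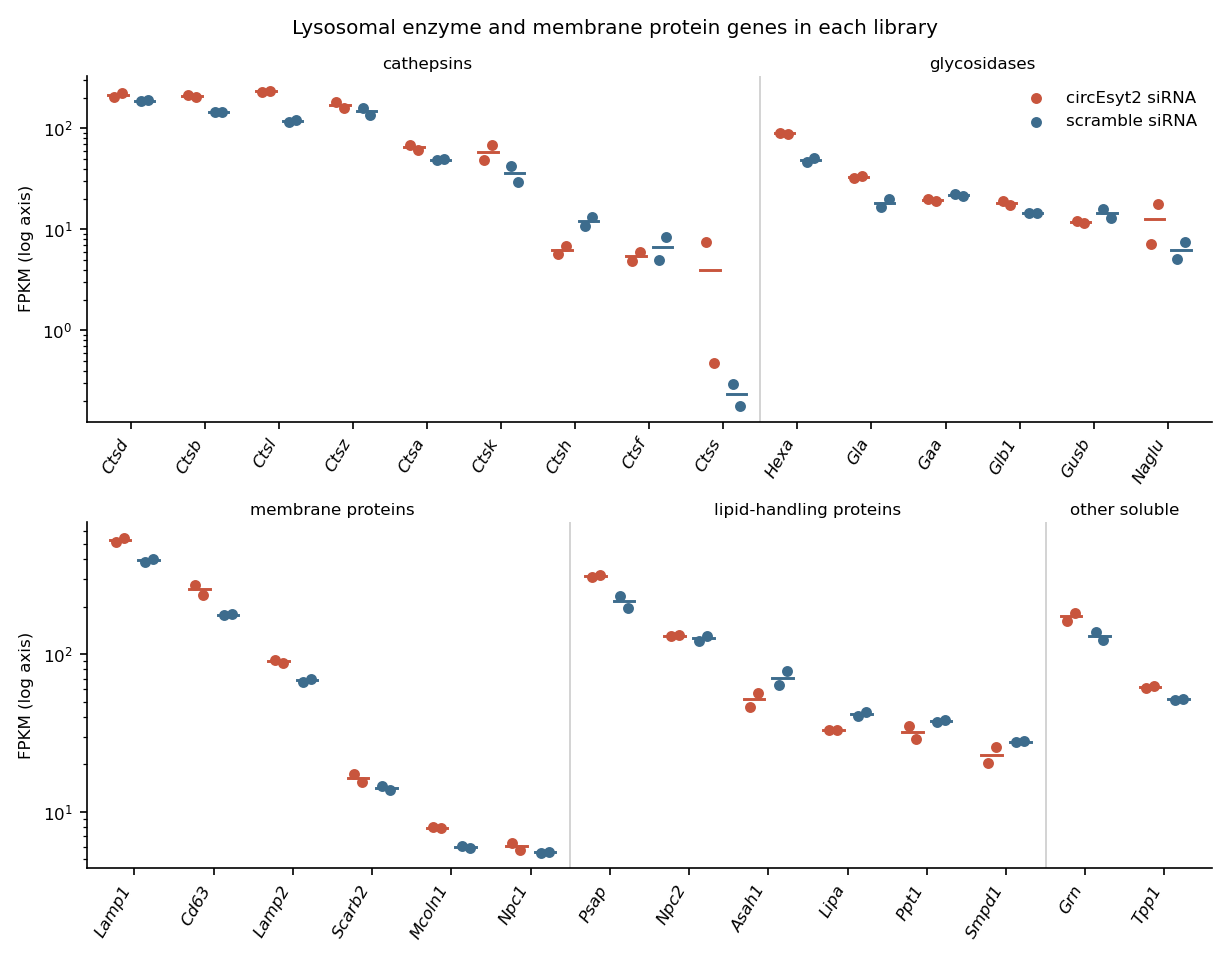
FPKM on a log axis of the 29 lysosomal enzyme and membrane protein genes in each library, with lines at group means and circEsyt2 siRNA at the left of each pair. Ctsl at 231 and 232 against 116 and 122 FPKM and Hexa at 90.6 and 88.8 against 46.8 and 50.7 FPKM are well separated, whereas a single circEsyt2 siRNA library sets the mean of Ctss.

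Other lysosomal genes, in 6 further lists, had 16 of 89 tested genes higher, 4 lower and 69 not called, a share of 22.5% in either direction, and a median log2 fold change of 0.12. Of 30 other hydrolase genes, 5 rose and 2 fell, a share of 23.3% beside 12.7% over all tested genes. Among those that rose were the peptidase genes Dpp7, Lgmn and Ctsc, by 0.70 to 1.06 on the log2 scale (limma adjusted p = 0.0143, 0.0201 and 0.0224). Lgmn encodes the protease legumain, which is known to process cathepsins. The peptidase gene Scpep1 fell to 64.0 and 67.1 FPKM with circEsyt2 siRNA, against 115 and 131 FPKM with scramble siRNA (log2 fold change −0.89, SE 0.11; adjusted p = 0.00983), and the sulfatase gene Ids fell by 0.64. Of 21 tested genes for other membrane proteins, Mfsd1, Ctns and Slc29a3 rose and 0 fell, a share of 14.3% that is close to the 12.7% over all tested genes. Ctns, the cystine exporter gene, was at 10.2 and 15.4 FPKM with circEsyt2 siRNA, against 4.10 and 3.72 FPKM with scramble siRNA.

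The list of accessory and assembly genes of the V-ATPase had 11 tested genes. It includes Tcirg1, which encodes a V0 subunit and no accessory protein. Atp6ap2 rose by 0.84 and Atp6ap1 by 0.51, and besides Tcirg1 none fell. The share called, Tcirg1 included, was 27.3%, beside 12.7% over all tested genes. Atp6ap2, known as the prorenin receptor, was at 116 and 114 FPKM with circEsyt2 siRNA, against 54.9 and 74.1 FPKM with scramble siRNA (limma adjusted p = 0.0258). Of 10 genes that tag and sort hydrolases, Gnptab, which makes the mannose 6-phosphate tag, was the 1 that passed the test, a share below the 12.7% over all tested genes. It fell to 9.89 and 9.89 FPKM with circEsyt2 siRNA, against 16.1 and 16.6 FPKM with scramble siRNA (adjusted p = 0.0311). Sumf1, an activator of sulfatases, was at 27.5 and 30.8 FPKM with circEsyt2 siRNA and 19.8 and 20.2 FPKM with scramble siRNA (adjusted p = 0.0522).

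Of 14 tested genes for MiT/TFE transcription factors and lysosomal nutrient signalling, 5 rose and 0 fell, a share of 35.7% beside 12.7% over all tested genes. The 5 were Rragc, Fnip2, Lamtor1, Rragd and Rraga, whose products bring mTORC1 to the lysosome or act on that step. Rragc was at 116 and 135 FPKM with circEsyt2 siRNA, against 64.2 and 60.3 FPKM with scramble siRNA (log2 fold change 0.997, SE 0.12; limma adjusted p = 0.00781). Fnip2 was at 14.3 and 14.6 FPKM with circEsyt2 siRNA, against 7.13 and 7.64 FPKM with scramble siRNA (adjusted p = 0.0176). Rragd, itself known to carry CLEAR elements, was at 6.88 and 9.09 FPKM with circEsyt2 siRNA, against 2.54 and 3.24 FPKM with scramble siRNA (adjusted p = 0.0228). None of the tested factor genes passed the test. Tfe3 was at 6.71 and 6.56 FPKM with circEsyt2 siRNA and 8.97 and 7.63 FPKM with scramble siRNA (adjusted p = 0.306). Mitf and Tfec had log2 fold changes of −0.30 and −0.25, and Tfeb, at 0.750 and 0 FPKM with circEsyt2 siRNA and 0.140 and 1.29 FPKM with scramble siRNA, was below the limit for testing. Where in the cell these factors were was not measured.

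The cystatins inhibit cysteine cathepsins. Cstb, the cytosolic cystatin B gene, was at 540 and 439 FPKM with circEsyt2 siRNA, against 246 and 267 FPKM with scramble siRNA, and rose by 0.92 (SE 0.13; limma adjusted p = 0.0113). Cst3, the secreted cystatin C gene, was at 218 and 169 FPKM with circEsyt2 siRNA and 248 and 230 FPKM with scramble siRNA (adjusted p = 0.203). Of the 20 calls in these further lists 16 rose and 4 fell. Without circEsyt2 siRNA replicate 1 the counts were 14 and 1, without circEsyt2 siRNA replicate 2 they were 3 and 0, and without either scramble library they were 0 and 0.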

How the data were processed

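RNA sequencing was carried out on 4 libraries, 2 per group, grouped by sample title. The authors deposited FPKM values, 1 file per library. The submitters' processing notes name Trimmomatic, HISAT2, featureCounts and the build GRCm38 (mm10). Their versions, settings and use of strand are not given. Library totals were solved from the low FPKM values with exon-union lengths of GENCODE M21 (99.4% of symbols matched). With these totals 97.1% to 97.3% of values of under 200 fragments were whole within 0.01. At these depths 1 fragment in 1 kb is worth 0.243 to 0.397 FPKM. Fragment numbers cover counting error only. The test was limma 3.58.1 in R 4.3.3 (eBayes with a trend, two-sided) on log2(FPKM + 1), for genes with a mean of at least 1 FPKM. These fold changes understate the change of low genes. The fit was tested on simulated data. Values per library were to be given for members that passed the test and, in each class, for the 2 with the highest mean FPKM and the 1 with the smallest p. In each further list the 2 genes with the smallest p were to be named, and other called genes where 5 or fewer. Further genes were added after their values were seen. The members, lists and tests were chosen with earlier results of these data known. Of the members 20 share exon bases with another gene, among them 8 of the 17 called. Limp2, in a list under that name, was not used. Some genes of the further lists that the rule would name are not reported here.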

Additional observations from a re-analysis of the deposited data

How the results depend on the processing

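The 17 called genes kept their direction in all 10 alternatives, of which only the other scalings could have changed it. All 17 kept their call with either other scaling or a pseudocount of 0.1. With eBayes without a trend 4 lysosomal genes rose and 0 fell, of them 3 and 0 in the V-ATPase, with 4 and 0 in the further lists and 203 and 374 among all genes. With the replicate block these counts were 8 and 1, 5 and 0, 14 and 1, and 404 and 604. The replicate numbers share only a number: deviations of same-numbered libraries had a correlation of −0.0507 over 11290 genes. With no filter on low values 6 of the 17 calls were lost. In that fit 11 members rose and 0 fell, of them 7 and 0 in the V-ATPase, with 13 and 2 in the further lists. The median log2 fold change was then 0.42 for V1, 0.24 for V0 and 0.029 for all genes. Other scalings gave a median of −0.23 for lipid handling, and 0.020 (median-ratio) and 0.021 (trimmed-mean) for all genes, and a pseudocount of 0.1 gave −0.26 for lipid handling and 0.40 for membrane proteins.

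Leaving out each library in turn gave 0 to 8 members higher and 0 lower, 0 to 5 V-ATPase genes higher and 0 lower, 0 to 14 further genes higher and 0 to 1 lower, and 0 to 405 genes higher and 0 to 622 lower over all. The zeros for higher genes, and for lower genes over all, came from the fits without scramble replicate 1 or 2. Those for lower members and lower V-ATPase genes held in each fit that left out a library. That for lower genes of the further lists also came without circEsyt2 siRNA replicate 2. The medians ranged from 0.66 to 0.90 for V1, 0.12 to 0.19 for V0, 0.27 to 0.60 for glycosidases, 0.35 to 0.38 for membrane proteins, −0.27 to −0.20 for lipid handling and −0.0062 to 0.016 for all genes. The cause of these differences was not tested.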
